A study of Mus musculus with 3 samples.

Results

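Mature dendritic cells that carry Ccr7 and Fscn1 were described in aortic CD45+ cells of mice, where they numbered 89 of 20903 barcodes that passed the cell filters. A barcode was kept with at least 200 detected genes and at most 10% of its unique molecular identifiers (UMIs, counts of captured RNA molecules) in mitochondrial genes. Among these, a member had at least 1 UMI each of Ccr7 and Fscn1, at least 1 UMI of Ccl22, Cacnb3 and Ccl17 together, at least 5 UMIs of H2-Aa, and none of the B cell gene Cd79a, the T cell gene Cd3e or the macrophage gene C1qa. The comparators were 152 kept barcodes with at least 2 UMIs of Cd209a, at least 5 of H2-Aa and none of Ccr7, C1qa, Cd79a or Cd3e, that is, dendritic cells that bear the lectin Cd209a and lack Ccr7. Together the 2 rules use 10 genes, whose levels are a description and were not tested.

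Dendritic cells take up antigen in tissue and, on maturation, switch from uptake to presentation. CCR7, the receptor for the chemokines CCL19 and CCL21, steers mature dendritic cells into lymphatic vessels and to lymph nodes, and fascin, the product of Fscn1, bundles actin in their dendrites. CCL22 and CCL17 attract T cells that bear CCR4. The artery wall and its adventitia hold dendritic cells in atherosclerosis, where these dendritic cells can present antigen to T cells.

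The study compared immune cells of whole aortas with their adventitia in 3 groups of mice, all labelled ApoE-/- on C57BL/6J, the controls included, a model that clears lipoproteins poorly and develops atherosclerosis. The control group had no further treatment named, the HHcy group drank homocysteine (Hcy) at 1.8 g/L for 4 weeks, and the WD group ate western diet for 4 weeks. Live nucleated CD45+ cells were sorted after enzyme digestion and made into 1 library per group. Sex, age and the number of mice pooled in a library are not given in the labels.

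The 3 libraries held 7512 to 9753 barcodes and 66789257 to 105180370 UMIs. Apoe, the disrupted gene, stood at 16.3 CPM (a gene's UMIs relative to the total, on the usual CPM scale) in the control library, 374 in HHcy and 19.3 in WD, so the library labelled HHcy went against its ApoE-/- label. Reads of the 3' end do not check which part of the gene was disrupted. Members held 0, 2 and 0 Apoe UMIs in this order. Between 20 and 24 barcode sequences were shared by each pair of libraries, and none of them was a member. From here on, values of 3 libraries stand in the order control, library labelled HHcy, WD. The median member had 11192.5, 12656 and 11665.5 UMIs, and the median comparator 14906, 13472 and 14293. Groups have 1 library each, which allows no test between them.

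The levels of the rule's own genes were set by the rule and describe the cells it chose. Ccr7 reached 4200.3, 4234 and 3764 CPM of the summed UMIs of members, with medians of 42.5, 43 and 35.5 UMIs per cell, and Fscn1 2135, 1585 and 1663 CPM. Cacnb3, a calcium channel subunit, stood at 654, 538 and 633 CPM in members and 0.952, 2.06 and 3.0 in comparators. The chemokine Ccl22 was found in 73.7%, 84.6% and 78.9% of members, at 1898, 3507 and 1530.3 CPM, against 18.1, 6.17 and 40.5 in comparators. Ccl17 was the most uneven of the rule's genes: 42.1%, 69.2% and 31.6% of members held a UMI, at 224, 1875 and 424 CPM, and a single cell gave 68.1% of its UMIs among members labelled HHcy and 57.7% among those of WD. As a measure of free RNA, neutrophil barcodes were used, with at least 20 UMIs each of S100a8 and S100a9 and none of Cd79a, Cd3e, C1qa or Ccr7. They numbered 116, 227 and 141, with medians of 4389, 5496 and 4071 UMIs per barcode. A Fscn1 UMI was found in 0.862%, 0.441% and 0% of them, a Ccl22 UMI in 0.862%, 0.441% and 1.42% and a Cacnb3 UMI in 1.72%, 0.441% and 0%. Without the condition on C1qa, 177, 365 and 318 barcodes passed, so these shares leave out barcodes that held foreign RNA of that gene. Of all kept barcodes, 39.0%, 57.5% and 34.2% held a Ccr7 UMI.

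No member lay at the limit of 1 UMI on Ccr7 or Fscn1. The lowest member had 6, 12 and 3 Ccr7 UMIs and 2, 13 and 2 Fscn1 UMIs, so a limit of 2 UMIs on each gave the same 89 cells. Barcodes that met every condition but Fscn1 numbered 30, 4 and 20, with median Ccr7 counts of 6, 1 and 10.5 UMIs, below the member medians, and 9, 1 and 4 of them held a UMI of Socs2, a gene of mature dendritic cells. C1qa kept out 17, 7 and 52 barcodes that met all other conditions, of which 11, 5 and 29 held only 1 or 2 C1qa UMIs. Their median Ccr7 counts were 36, 18 and 34.5 UMIs, and 15, 5 and 44 of them held a Socs2 UMI. A C1qa UMI was found in 34.5%, 37.8% and 55.7% of neutrophil barcodes when C1qa was left out of their gate. Of barcodes that met all member conditions but C1qa, 30.9%, 35.0% and 57.8% held one. The condition on C1qa removed the largest share of candidates in the WD library. Barcodes that met every condition for a minimum count numbered 65, 40 and 125. Of these, 55, 21 and 94 held no Cd79a UMI. Cd79a alone kept out 2, 9 and 5 barcodes, of which 2, 4 and 3 held only 1 or 2 Cd79a UMIs. Among all kept barcodes, 46.6%, 28.0% and 59.3% held no Cd79a UMI. The part of this condition in the member share of the library labelled HHcy was not tested.

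Members made up 0.629% of kept barcodes in the control library (38 of 6038, exact Clopper-Pearson 95% interval 0.446% to 0.863%), 0.159% in the library labelled HHcy (13 of 8155, 0.0849% to 0.272%) and 0.566% in WD (38 of 6710, 0.401% to 0.776%). The log2 ratio of the shares was -1.98 (95% interval -2.89 to -1.07) for HHcy against control and -0.15 (-0.80 to 0.49) for WD against control. These intervals cover counting error only, and leave out the spread between mice and preparations. Comparators, at 1.21%, 0.429% and 0.656% of kept barcodes, were also fewer in the library labelled HHcy. Of members and comparators together, members were 34.2%, 27.1% and 46.3%, with log2 ratios of -0.34 (-1.10 to 0.43) for HHcy and 0.44 (-0.064 to 0.94) for WD against control. For HHcy against WD the ratio was -0.77 (-1.52 to -0.026). In barcodes thinned to 2000 UMIs before the rule, the WD against control ratio was 0.70 (0.12 to 1.27) and the HHcy against WD ratio -0.77 (-1.55 to 0.0077). With up to 2 C1qa UMIs allowed in both gates, members were 49, 18 and 67, the WD share was 0.999% of kept barcodes, and the WD against control ratio of members among both classes was 0.64 (0.23 to 1.05). A share of sorted CD45+ cells can also move with the numbers of other cells.

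**Figure D1:**
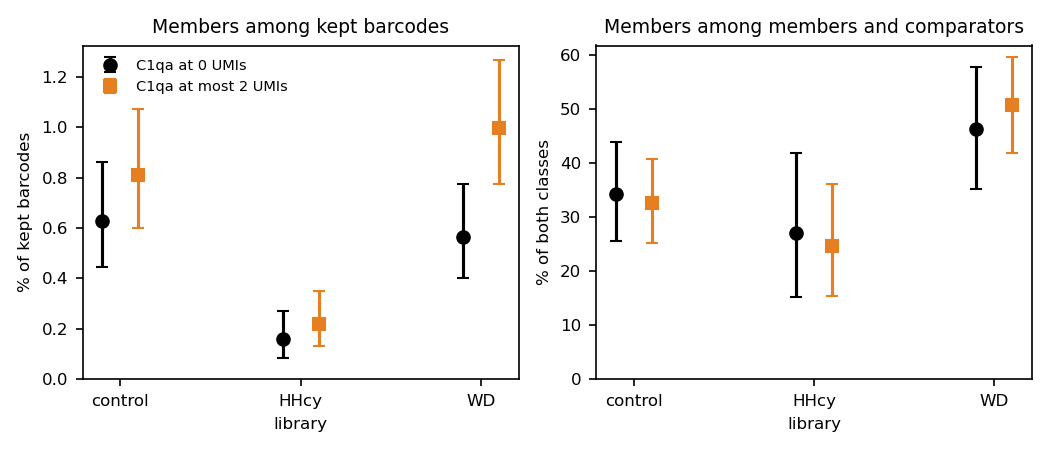
Share of members in each library, among all kept barcodes (left) and among members and Cd209a comparators (right), in percent, with exact 95% binomial intervals as bars; black circles, C1qa at 0 UMIs; orange squares, C1qa at most 2 UMIs in both gates. The library labelled HHcy holds the lowest share of kept barcodes, 0.159%, and the WD share moves from 0.566% to 0.999% with the looser limit.

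To ask how these cells differ from Cd209a dendritic cells of the same aortas, UMIs were summed by class in each library and tested with edgeR's quasi-likelihood test, library as a block, with Benjamini-Hochberg adjustment over 5329 genes. The 3 libraries served as replicates of the class difference, so the p-values rest on how that difference varies between libraries. With 2 residual degrees of freedom, edgeR draws the spread of each gene toward that of other genes. A small p-value thus also rests on the spread of other genes. The libraries also differ in treatment, so this spread includes any effect of treatment on the difference. Genes that vary with the rule's genes from cell to cell were selected with them, and the fit shows the size and spread of a difference, not an independent check of the cell type. Of 5329 genes, 974 (18.3%) were higher in members, 1119 (21.0%) were lower, and the median log2 fold change of all genes was -0.07. Lists of known genes are set against these shares below, and the edgeR adjusted p of each named gene follows its values where given. SE is the absolute log2 fold change divided by the square root of the test's F statistic, and does not measure the spread between libraries alone.

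The 10 genes furthest up had 0 to 10 UMIs in all comparators together. Il12b, the p40 subunit of interleukins 12 and 23, stood at 361, 248 and 258 CPM in members and 0, 0 and 0 in comparators, and was at least 219.6-fold higher by the floor of 3 counts over the comparator class (edgeR adjusted p = 1.2e-08). A UMI of Il12b was found in 34.2%, 46.2% and 42.1% of members, so most members in each library showed none, and a single cell carried 47% of the control library's Il12b UMIs. Apol7c, an apolipoprotein L of dendritic cells, stood at 408, 124 and 76 CPM and was at least 163-fold higher (edgeR adjusted p = 4.3e-08). Tnfrsf9, which encodes the costimulatory receptor 4-1BB, was at 124, 136 and 133 CPM, nearly level over the libraries and at least 95.2-fold above comparators (edgeR adjusted p = 1.2e-07). The serpin Serpinb6b was at 658, 455 and 538 CPM, with 2 UMIs in all comparators, a log2 ratio of pooled counts of 9.31 (95% counting interval 7.45 to 12.36). H2-M2, a nonclassical MHC class I gene, was at 243, 225 and 169 CPM with 1 comparator UMI, a log2 ratio of 8.84 (95% counting interval 6.35 to 14.15). Nudt17, Pakap, Adcy6 and Slc4a8 stood at 193, 183 and 198, at 156, 183 and 84.4, at 204, 124 and 160.4 and at 169, 159.7 and 141 CPM, with 2, 2, 3 and 3 comparator UMIs. The symbol Pakap names 2 rows of the matrices, and the values are those of the row that held UMIs. Zmynd15 was at 489, 248 and 701 CPM in members and 3.81, 4.11 and 6.00 in comparators (log2 fold change 6.85, SE 0.28, edgeR adjusted p = 3.1e-10). For each of these genes the CPM of the summed members was above that of the comparators in every library.

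The gene furthest down was Ccr2, the chemokine receptor that brings monocytes from blood, at 2.17, 0 and 14.8 CPM in members and 425, 407 and 368 in comparators (log2 fold change -5.61, SE 0.39, edgeR adjusted p = 7.8e-08). The lectin Clec10a was at 6.52, 0 and 16.9 CPM in members and 269, 364 and 344 in comparators (log2 fold change -4.85, SE 0.35, edgeR adjusted p = 1.1e-07). Clec4b1, another C-type lectin, was at 4.34, 11.8 and 4.22 CPM in members and 129, 160.4 and 185 in comparators. Ly6c2, a surface protein of classical monocytes, was at 10.9, 11.8 and 14.8 CPM in members and 189, 569.7 and 378 in comparators. Ms4a6c, a membrane protein of myeloid cells, was at 23.9, 53.2 and 14.8 CPM in members and 547, 693 and 708 in comparators. Kmo, kynurenine 3-monooxygenase, was at 6.52, 5.91 and 2.11 CPM in members and 102, 117 and 93 in comparators. Olfm1, the endocytic adaptor Dab2, the adaptor Sla and Ifitm6 were lower, with log2 fold changes of -4.00, -3.95, -3.95 and -3.94. Every member sum of these 10 genes was below every comparator sum.

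**Figure D2:**
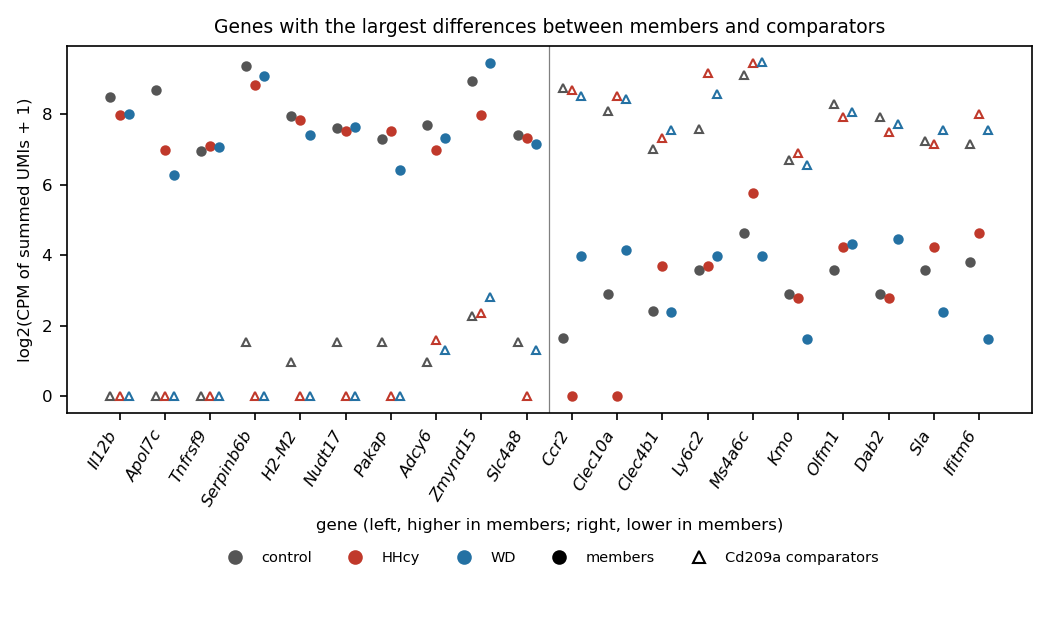
Levels of the 10 genes with the largest positive and the 10 with the largest negative log2 fold change, as log2(CPM of summed UMIs + 1), for members (filled circles) and Cd209a comparators (open triangles), coloured by library. Il12b, Apol7c and Tnfrsf9 sit at 0 in every comparator sum, and circles and triangles do not overlap for any gene.

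Markers of mature dendritic cells outside the rule moved as a block. Of 26 listed genes, 25 were tested and 25 were higher in members (median log2 fold change 4.57), beside 18.3% of all genes. The list and the rule both come from knowledge of this cell type, and genes that vary with the rule's genes were selected with them. The count describes the members and is neither an independent check of the label nor a separate finding. The summed level of the 26 genes was 19160, 22089 and 23250 CPM in members and 2594, 2581 and 2979 CPM in comparators. Besides the genes above, the anion transporter gene Slco5a1 was at 106, 101 and 76 CPM with no comparator UMI. The most abundant marker, chosen for its level, was Fabp5, a fatty acid binding protein, at 2452, 6079.7 and 6959 CPM in members and 66.7, 76.1 and 128 in comparators (log2 fold change 5.90, SE 0.19, edgeR adjusted p = 3.5e-11). Relb, the partner of the noncanonical NF-kB pathway, stood at 695, 597 and 713 CPM in members and 55.2, 45.2 and 45 in comparators. The cytokine signalling inhibitor Socs2 was at 345, 266 and 441 CPM in members and 5.71, 0 and 6.00 in comparators. Il4i1, an amino acid oxidase that dampens T cells, was at 636, 627 and 722 CPM in members and 9.52, 24.7 and 19.5 in comparators. Cd83, a surface protein of mature dendritic cells, differed least of these, with a log2 fold change of 1.22. These 5 genes were chosen after their values were seen.

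Secreted factors split in 2 directions. Among chemokines and cytokines outside the rule, 5 of 14 tested genes were higher, 8 lower and 1 did not pass (median log2 fold change -1.22). The 5 that were higher were Il12b, Ccl5, Il15, Cxcl16 and Ebi3, of which Ebi3 falls outside the naming rule. Ccl5, which attracts T cells and monocytes, stood at 3989.6, 2011 and 1838 CPM in members and 46.7, 39.1 and 48 in comparators (log2 fold change 5.98, SE 0.21, edgeR adjusted p = 6.9e-11). Cxcl16, the ligand of CXCR6 on T cells, was at 1108, 852 and 1045 CPM in members and 223, 107 and 317 in comparators (2.45 on the log2 scale). Il15, which sustains memory T and NK cells, was at 60.8, 71 and 40.1 CPM in members and 7.62, 8.23 and 12 in comparators. Ebi3, a subunit of interleukin 27, was at 50, 35.5 and 23.2 CPM in members and 26.7, 16.5 and 18 in comparators with an edgeR adjusted p of 0.047. The 8 that were lower were Ccl6, Ccl2, Tgfb1, Ccl4, Cxcl10, Ccl3, Ccl9 and Il1b, chemokines and cytokines typical of monocytes and macrophages in the main. Ccl6 stood at 41.3, 47.3 and 90.8 CPM in members and 427, 471 and 248 in comparators. Il1b was at 636, 704 and 1043 CPM in members and 1327, 1806 and 2147 in comparators (log2 fold change -0.99, SE 0.13). Tnf, at 185, 289.8 and 99.2 CPM in members and 264, 267 and 179 in comparators, did not pass (edgeR adjusted p = 0.34). Ccl19, a ligand of CCR7, gave 2 UMIs in all members and was not tested.

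In the list of migration genes, 3 of 13 tested genes were higher, 9 lower and 1 did not pass (median log2 fold change -1.89). Besides Ccr2, the integrin subunits Itgam, Itgb7 and Itgb2 were lower, with log2 fold changes of -3.44, -2.88 and -2.71. The 3 higher genes were Icam1, Itga4 and Gpr183. Icam1, an adhesion molecule that also steadies contact with T cells, was at 254, 384 and 215 CPM in members and 77.1, 82.3 and 64.5 in comparators. Itga4, an alpha integrin, was at 519, 556 and 545 CPM in members and 195, 185 and 135 in comparators. Gpr183, the oxysterol receptor EBI2, was at 274, 272 and 384 CPM in members and 130.5, 84.3 and 105 in comparators. These 3 complete the count and were not among the largest differences. Cxcr4, the receptor for CXCL12, was at 169, 166 and 226 CPM in members and 232, 165 and 311 in comparators and did not pass (edgeR adjusted p = 0.47).

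Of the actin and cytoskeleton list, 14 of 23 tested genes were higher, 4 lower and 5 did not pass (median log2 fold change 0.67), beside 18.3% higher and 21.0% lower of all genes. Marcks, which links the membrane to actin, was at 2202, 2082 and 1957 CPM in members and 339, 339 and 309 in comparators (log2 fold change 2.82, SE 0.13, edgeR adjusted p = 1.3e-09). Arhgap31, a regulator of Rac and Cdc42, the unconventional myosin Myo1g, the vesicle traffic GTPase Rab8b and the calponin Cnn2 had log2 fold changes of 2.64, 2.2, 1.84 and 1.65. Arpc1b, a subunit of the Arp2/3 complex that branches actin, was at 645, 704 and 654 CPM in members and 888, 1009.9 and 899 in comparators and did not pass.

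Of 6 tested costimulation genes, 4 were higher, 1 lower and 1 did not pass (median 0.74). Cd40, the receptor for T cell help, was at 119, 219 and 179 CPM in members and 32.4, 28.8 and 40.5 in comparators (log2 fold change 2.40, SE 0.25, edgeR adjusted p = 4.3e-06), and the ICOS ligand Icosl at 137, 195 and 73.9 CPM in members and 61.9, 51.4 and 52.5 in comparators. Differences in the CD28 ligands were small: Cd80 was at 71.7, 65.1 and 82.3 CPM in members and 41.9, 47.3 and 40.5 in comparators (log2 fold change 0.95, SE 0.25) and Cd86 at 235, 219 and 192 CPM in members and 152, 204 and 153 in comparators (log2 fold change 0.53, SE 0.19, edgeR adjusted p = 0.035), and the log2 fold change of Cd86 was -0.063 once barcodes with 2 or more UMIs of other-lineage genes were left out. Cd48 was lower, at 54.3, 47.3 and 61.2 CPM in members and 247, 259 and 182 in comparators. Tnfsf9, the ligand of 4-1BB, was at 252, 491 and 103 CPM in members and 289, 278 and 171 in comparators and did not pass.

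In the list of coinhibitory and regulatory genes, 7 of 16 tested genes were higher, 6 lower and 3 did not pass (median log2 fold change 0.48). Cd200, which restrains myeloid cells, was at 276, 248 and 262 CPM in members and 4.76, 4.11 and 4.5 in comparators (log2 fold change 5.95, SE 0.30, edgeR adjusted p = 2.8e-09). The PD-1 ligands were both higher: Cd274 (PD-L1) was at 506, 591 and 553 CPM in members and 50.5, 57.6 and 45 in comparators (log2 fold change 3.58, SE 0.19). Pdcd1lg2 (PD-L2) was at 47.8, 65.1 and 84.4 CPM in members and 1.9, 4.11 and 3.0 in comparators (log2 fold change 4.57, SE 0.43). Cd274 was found in 92.1%, 100.0% and 92.1% of members and in 30.2%, 41% and 38.3% of neutrophil barcodes. The shares in neutrophil barcodes cannot be split into free RNA and RNA of the neutrophils themselves. Aldh1a2, which makes retinoic acid, stood at 67.3, 23.7 and 108 CPM in members and 13.3, 4.11 and 3.0 in comparators, and the death receptor gene Fas at 54.3, 124 and 92.9 CPM in members and 8.57, 8.23 and 12 in comparators. Tnfaip3, the NF-kB inhibitor A20, at 502, 674 and 384 CPM in members and 503, 461 and 338 in comparators, did not pass (edgeR adjusted p = 0.074).

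NF-kB is the family of transcription factors that drives much of dendritic cell maturation, and its noncanonical arm runs through Map3k14 (NIK), Nfkb2 and Relb. Of the NF-kB pathway list, which leaves out Relb, 13 of 20 tested genes were higher, 1 lower and 6 did not pass (median log2 fold change 0.84). Map3k14 was at 248, 183 and 327 CPM in members and 64.8, 107 and 90 in comparators (log2 fold change 1.76, SE 0.23), Nfkb2 at 241, 207 and 277 CPM in members and 85.7, 76.1 and 91.5 in comparators (log2 fold change 1.67, SE 0.19) and Rel at 1373, 1011 and 836 CPM in members and 464, 315 and 486 in comparators (log2 fold change 1.49, SE 0.18, edgeR adjusted p = 1.1e-05). The adaptor Tank and Cflar, an inhibitor of caspase 8, had log2 fold changes of 1.86 and 1.78. Nfkbid, a nuclear inhibitor of the family, was at 204, 136 and 144 CPM in members and 203, 121 and 137 in comparators and did not pass.

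The 250 bases before each RefSeq transcript start were searched for the NF-kB consensus of 10 letters on both strands, in RefSeq promoters of GRCm38.p6. A gene counted once, however many starts or matches it had. A match was found for 10.8% of the 772 genes higher in members that the promoter table holds, 5.65% of 885 lower genes, 6.37% of all 4304 genes tested that it holds and 4.46% of all 27025 genes in it. Of the 10 genes furthest up, 8 were in the table and 2 had a match, Tnfrsf9 and H2-M2; of the 10 furthest down, 8 were in it and none had one. The Tnfrsf9 match lies before a RefSeq transcript start inside the gene as GENCODE vM21 gives it, where its window overlaps an exon of Tnfrsf9, so its letters are not shown. The H2-M2 windows are shown because this gene had 1 UMI in all comparators, with the match in capitals, on the gene's strand and 5′ to 3′. They are chr17:37483710-37483749 and chr17:37483676-37483715 (minus strand), and their matches start 180 and 146 bases before the RefSeq start. Both lie upstream of the gene and overlap no annotated gene or exon.
H2-M2, first: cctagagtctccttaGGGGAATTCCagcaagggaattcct
H2-M2, second: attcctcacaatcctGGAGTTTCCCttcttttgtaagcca
The second match lies on the opposite strand. A match is a description of letters, not a measured site.

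Among transcription factors of dendritic cells, 12 of 24 tested genes were higher, 8 lower and 4 did not pass (median log2 fold change 0.53). Id2, an inhibitor of helix-loop-helix factors needed by dendritic cells, was at 1918, 1165 and 1233 CPM in members and 267, 158 and 155 in comparators (log2 fold change 3.06, SE 0.15, edgeR adjusted p = 1.9e-09). Stat4, which transmits the interleukin 12 signal, stood at 180.3, 142 and 154 CPM in members and 13.3, 20.6 and 18 in comparators (log2 fold change 3.42, SE 0.27). Spib, Hivep1 and the activation-induced nuclear receptor Nr4a3 had log2 fold changes of 2.55, 2.40 and 2.26.

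The presentation machinery divided between the MHC classes. In the class II list, H2-Aa left out, 3 of 14 tested genes were higher, 8 lower and 3 did not pass (median log2 fold change -0.71). H2-Ab1, the beta chain of I-A, was lower at 3616, 3412 and 5524 CPM in members and 9747, 8303 and 9365 in comparators (log2 fold change -1.0, SE 0.11, edgeR adjusted p = 7e-06), and the invariant chain gene Cd74 at 11037, 11491 and 14482 CPM in members and 20952, 18153 and 18134 in comparators (log2 fold change -0.48, SE 0.09). H2-Eb1, the beta chain of I-E, stood at 4910.5, 5109.8 and 7987 CPM in members and 7805, 6467 and 8006 in comparators and did not pass (edgeR adjusted p = 0.22). Larger differences lay in loading and turnover: the peptide editor genes H2-DMb1 and H2-DMa were at 73.8, 53.2 and 118 CPM in members and 633, 730.2 and 750.0 in comparators and at 174, 130.1 and 177 CPM in members and 861, 769 and 867 in comparators, H2-Ob had a log2 fold change of -2.11, and March1, the ubiquitin ligase that removes class II from the surface, was at 6.52, 5.91 and 0 CPM in members and 85.7, 55.5 and 72 in comparators (log2 fold change -4.13, SE 0.53). Ciita, the master regulator of class II genes, was at 76, 88.7 and 167 CPM in members and 260.0, 232 and 210.0 in comparators (log2 fold change -0.94, SE 0.26). Against this direction went H2-Eb2, at 237, 266 and 272 CPM in members and 2.86, 2.06 and 3.0 in comparators (log2 fold change 6.59, SE 0.32, edgeR adjusted p = 2.4e-09). Ctss, which trims the invariant chain, was at 838, 621 and 1053 CPM in members and 1216, 1193 and 1169 in comparators and did not pass.

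Of the MHC class I list, 14 of 22 tested genes were higher, 2 lower and 6 did not pass (median log2 fold change 0.89), beside 18.3% higher of all genes. Nlrc5, the activator of class I genes, was at 161, 148 and 139 CPM in members and 23.8, 16.5 and 21 in comparators (log2 fold change 2.98, SE 0.25, edgeR adjusted p = 4.4e-07). Psme2, a subunit of the proteasome activator, was at 1064, 781 and 975 CPM in members and 210.5, 212 and 224 in comparators (log2 fold change 2.28, SE 0.16). H2-Q6, H2-Q7 and H2-Q4 had log2 fold changes of 2.58, 1.90 and 1.67; these near-identical genes can share reads, so the split among them is uncertain. The chaperone gene Canx was at 165, 154 and 154 CPM in members and 230.5, 234 and 237 in comparators and did not pass.

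Genes of uptake and pattern recognition were lower almost throughout. In that list, 1 of 19 tested genes were higher, 16 lower and 2 did not pass (median log2 fold change -2.55). Mgl2, a galactose-binding lectin, was at 13, 11.8 and 29.6 CPM in members and 329, 359.9 and 318 in comparators (log2 fold change -3.91, SE 0.29, edgeR adjusted p = 1.2e-07). Fcgr1, the high-affinity antibody receptor, was at 4.34, 0 and 4.22 CPM in members and 47.6, 76.1 and 84 in comparators. The lectin Cd209d, a neighbour in family of the comparators' gate gene, gave 3 UMIs in members, a log2 ratio of pooled counts of -4.60 (95% counting interval -6.89 to -3.02). The single gene higher was Ly75, the endocytic receptor DEC-205, at 82.5, 82.8 and 122 CPM in members and 0.952, 2.06 and 0 in comparators, with 2 comparator UMIs and a log2 ratio of 6.78 (95% counting interval 4.89 to 9.84). Tlr7, a sensor of single-stranded RNA, was at 6.52, 29.6 and 4.22 CPM in members and 17.1, 32.9 and 21 in comparators and did not pass.

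Genes that mark the 2 kinds of conventional dendritic cell moved differently. Of the type 2 identity list, 1 of 13 tested genes were higher, 10 lower and 2 did not pass (median log2 fold change -2.24); the comparators were gated on a type 2 gene, which enters this count. Cd300a, an inhibitory receptor, was at 30.4, 23.7 and 27.4 CPM in members and 289, 348 and 387 in comparators, and Notch2, at 76, 35.5 and 33.8 CPM in members and 107, 88.4 and 60 in comparators, did not pass. Of the type 1 identity list, 3 of 9 tested genes were higher, 4 lower and 2 did not pass (median log2 fold change -0.58). The higher genes were Irf8, Batf3 and Id2, which are also factors of dendritic cells at large, at log2 fold changes of 2.02, 1.10 and 3.06. Naaa was lower at 39.1, 11.8 and 6.33 CPM in members and 293, 209.8 and 192 in comparators. Wdfy4, needed for cross-presentation, was at 41.3, 5.91 and 6.33 CPM in members and 182, 84.3 and 129 in comparators, and Sept3 gave 1 UMI in members, a log2 ratio of -5.69 (95% counting interval -11.01 to -3.18). Cd24a, at 54.3, 47.3 and 80.2 CPM in members and 154, 165 and 42 in comparators, did not pass. Genes shared by the lineage were 6 higher, 2 lower and 2 not passing of 10. Zbtb46, a factor restricted to conventional dendritic cells among immune cells, was at 65.2, 29.6 and 38 CPM in members and 21, 28.8 and 21 in comparators (edgeR adjusted p = 0.014), Bcl11a at 8.69, 11.8 and 12.7 CPM in members and 146, 204 and 99 in comparators, the integrin gene Itgax (CD11c) at 54.3, 65.1 and 27.4 CPM in members and 194, 136 and 228 in comparators, and Dpp4, at 143, 130.1 and 106 CPM in members and 109, 129.6 and 85.5 in comparators, did not pass.

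Cholesterol synthesis genes were higher in members. Of 7 tested genes of synthesis and uptake, 5 were higher, none lower and 2 did not pass (median 1.02); 14 of the 21 listed genes were too low to test, so the count covers the abundant ones. Idi1, an isomerase of the pathway, was at 104, 130.1 and 40.1 CPM in members and 13.3, 8.23 and 6.00 in comparators (log2 fold change 3.30, SE 0.35, edgeR adjusted p = 4.2e-06). Hmgcs1 had a log2 fold change of 1.52, and Cyp51 passed narrowly (edgeR adjusted p = 0.035). Srebf2, the regulator of the pathway, was at 148, 118 and 84.4 CPM in members and 112, 105 and 79.5 in comparators and did not pass. Of the LXR target and lipid handling genes, 3 of 13 tested genes were higher, 4 lower and 6 did not pass (median log2 fold change -0.69). Pltp, a phospholipid transfer protein, was lower at 13, 11.8 and 48.5 CPM in members and 155, 187 and 164 in comparators, as were Soat1, Npc1 and Lipa, which esterify or release cholesterol in the cell, at log2 fold changes of -1.54, -1.36 and -1.03. Fabp4, a fatty acid binding protein, was higher at 17.4, 118 and 139 CPM in members and 14.3, 30.9 and 13.5 in comparators, and the lipid droplet gene Plin2, at 65.2, 47.3 and 146 CPM in members and 191, 146 and 143 in comparators, did not pass.

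Interferon-stimulated genes were mostly lower: 4 of 20 tested genes were higher, 12 lower and 4 did not pass (median log2 fold change -1.30). Ifitm3 stood at 243, 260.2 and 445 CPM in members and 2226, 2836 and 3711 in comparators (log2 fold change -3.06, SE 0.13, edgeR adjusted p = 7e-10). Irf7 was at 6.52, 11.8 and 33.8 CPM in members and 90.5, 105 and 171 in comparators. The higher genes included Irf1, Gbp2 and Gbp5, which respond to interferon gamma; Gbp2 was at 193, 130.1 and 169 CPM in members and 30.5, 26.7 and 21 in comparators (log2 fold change 2.83, SE 0.25), Gbp5 at 60.8, 35.5 and 42.2 CPM in members and 2.86, 2.06 and 15 in comparators and Irf1 at 235, 112 and 177 CPM in members and 29.5, 39.1 and 46.5 in comparators. Bst2, at 191, 154 and 355 CPM in members and 239, 648 and 461 in comparators, did not pass. Of survival genes, 5 of 15 tested genes were higher, 5 lower and 5 did not pass (median log2 fold change 0.05): Bcl2a1b and Bcl2a1d, NF-kB-dependent survival genes of near-identical sequence, were higher by 2.90 and 2.22, as was Bcl2l1 (1.84), while Bcl2 was lower (-1.19) and the "do not eat me" signal Cd47 did not pass, all as log2 fold changes. Of cell cycle genes, 2 of 13 tested genes were higher, 2 lower and 9 did not pass (median log2 fold change -0.47); Top2a, at 23.9, 53.2 and 12.7 CPM in members and 88.6, 45.2 and 64.5 in comparators, was lower although its HHcy sums ran the other way. Ube2c was lower at 21.7, 23.7 and 2.11 CPM in members and 82.8, 24.7 and 13.5 in comparators, and the higher genes Tubb5 and H2afz also serve resting cells.

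Of the genes of the homocysteine and methionine cycle, 3 of 11 tested genes were higher, 1 lower and 7 did not pass (median log2 fold change 0.39). Gclc, the rate-limiting enzyme of glutathione synthesis, was at 237, 373 and 71.8 CPM in members and 21.9, 10.3 and 7.5 in comparators (log2 fold change 4.00, SE 0.32, edgeR adjusted p = 2.8e-07). Mthfd2, of mitochondrial folate metabolism, was at 154, 148 and 139 CPM in members and 46.7, 41.1 and 55.5 in comparators, Ahcyl2, related to the enzyme that releases homocysteine, at 119, 101 and 97.1 CPM in members and 80, 72 and 54 in comparators, and Srm, spermidine synthase, gave 2 member UMIs, a log2 ratio of -3.89 (95% counting interval -6.96 to -1.97). Dnmt3a, a DNA methyltransferase, was at 82.5, 35.5 and 44.3 CPM in members and 47.6, 30.9 and 55.5 in comparators and did not pass.

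Most calls of named genes did not rest on a single library, and 17 of 130 named genes past the threshold missed it when 1 was left out (edgeR adjusted p from 0.051 to 0.56). Without the control library these were Ebi3, Cd80, Cd86, Ciita, Zbtb46, Cyp51, Npc1, Lipa, Ube2c, Top2a, Bcl2 and Ahcyl2. Without the library labelled HHcy they were Ebi3, Cyp51 and Lipa. Without WD they were Ebi3, Ccl3, Cd80, Cd86, Batf3, Zbtb46, Cyp51, Fabp4, Npc1, Lipa, Ube2c, Top2a, Bcl2l1, Bcl2, Ahcyl2 and Adgre1. The weak calls include Cyp51, the CD28 ligands and Ciita. Most named genes were chosen for large differences, and calls over all genes were lost more often. Without WD, 646 of 972 higher and 624 of 1116 lower genes still tested were called again. Without control these were 730 of 974 and 683 of 1119, and without the library labelled HHcy 942 of 971 and 952 of 1119.

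**Figure D3:**
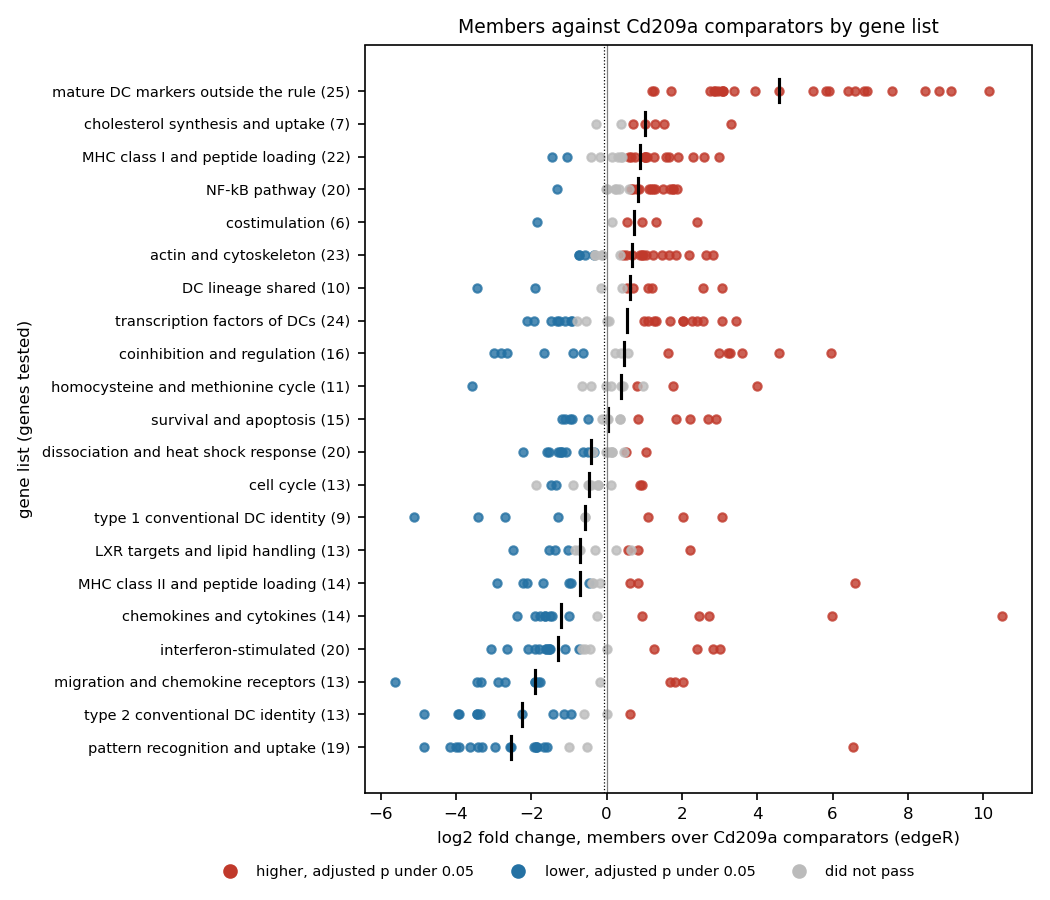
Log2 fold change of members over Cd209a comparators (edgeR) for each tested gene of 21 lists; the number tested stands in brackets, black bars are list medians, and the dotted line is the median of all genes, -0.07. Mature dendritic cell markers outside the rule lie at the top with a median of 4.57, and pattern recognition and uptake genes at the bottom with -2.55.

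Markers of other cells differed between the classes and stand beside these counts. Genes of the dissociation and heat shock response, which digestion can induce, were 2 higher, 11 lower and 7 not passing of 20; Egr1, Hspa5, Ier2, Btg2 and Fos were lower, with log2 fold changes of -2.21, -1.58, -1.54, -1.28 and -1.22, and Zfp36 did not pass. The 15 macrophage and monocyte markers summed to 560, 544 and 399 CPM in members and 2255, 3636 and 2730 CPM in comparators. Of 9 tested, 6 were lower in members, among them Lyz2 at 313, 302 and 122 CPM in members and 1446, 2306 and 1579.5 in comparators, Cd68 at 34.7, 29.6 and 99.2 CPM in members and 232, 263 and 275 in comparators and Adgre1 at 8.69, 5.91 and 4.22 CPM in members and 29.5, 39.1 and 39 in comparators, and 3 did not pass, among them Pf4. The part of these levels in the lower monocyte genes of members was not tested. The 12 B cell markers summed to 124, 225 and 82.3 CPM in members, with Cd22 at 0 in all 3 libraries, and Ighm was at 60.8, 112 and 38 CPM in members and 169.5, 245 and 155 in comparators. The 14 T and NK cell markers summed to 23.9, 11.8 and 54.9 CPM, with Cd3g, Cd8b1, Lck, Ncr1, Klrb1c, Gzma and Cd28 at 0 throughout. The 9 plasmacytoid dendritic cell markers summed to 274, 260 and 433 CPM, with Klk1, Cox6a2 and Cd300c at 0, and Tcf4, which also marks those cells, was lower than in comparators. Langerhans-type markers summed to 78.2, 5.91 and 59.1 CPM, with Cd207 and Il2rb at 0, and stromal markers to 43.4, 17.7 and 29.6 CPM, with Col1a1, Col3a1, Cdh5 and Acta2 at 0.

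Neutrophil RNA sat in a few barcodes. The 10 neutrophil markers summed to 93.4, 118 and 3130 CPM in members, and in WD 2 cells held 10 or more of these UMIs, 1 of them 55.2% of all, while Ly6g and Camp were at 0. Comparators of the library labelled HHcy held 10547 CPM, 95.4% of it in a single barcode. S100a8 stood at 39.1, 17.7 and 1224 CPM in members and 16.2, 3392 and 458 in comparators, S100a9 at 21.7, 59.1 and 1554 CPM in members and 21.9, 5134 and 627 in comparators, and neither passed in the class contrast, where their direction depended on which library was left out. When barcodes with 20 or more S100a8 UMIs were left out of both classes, 933 of 962 genes called higher and 1060 of 1090 called lower that were still tested were called again.

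Members of the treated libraries were then set against control members, by log2 ratios of CPM with exact conditional binomial 95% intervals for counting error. No p-value is given, and genes with at least 30 UMIs in the 2 libraries together were compared. In the library labelled HHcy, whose Apoe level went against its label, 92 of 2678 genes (3.44%) were at least 2-fold higher and 144 (5.38%) at least 2-fold lower. In WD, 119 of 3516 genes (3.38%) were at least 2-fold higher and 141 (4.01%) at least 2-fold lower. Both comparisons share the control library.

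Fabp5 was the marker of maturity that differed most upward in both treated libraries. Its level was 2452, 6079.7 and 6959 CPM, and its log2 ratio to control was 1.31 (1.19 to 1.43) for HHcy and 1.5 (1.41 to 1.60) for WD. In WD the difference ran through the cells, with a median of 67 UMIs per cell against 20 in control. In the library labelled HHcy the median was 16 UMIs and 1 cell of 13 carried 31.4% of the UMIs, so the sum there rests on a few cells; the mean of each cell's CPM gave 0.56. Comparators, at 66.7, 76.1 and 128 CPM, had ratios of 0.19 (-0.42 to 0.79) and 0.94 (0.46 to 1.41). Apol7c went the other way, at 408, 124 and 76 CPM, with ratios of -1.72 (-2.44 to -1.06) and -2.43 (-2.98 to -1.91), and a UMI of it was found in 39.5%, 46.2% and 28.9% of members. Zmynd15, a zinc finger gene, had ratios of -0.98 (-1.49 to -0.50) for HHcy and 0.52 (0.27 to 0.77) for WD. Of 25 and 26 markers compared, 1 and 1 were 2-fold higher, beside 3.44% and 3.38% of all genes. At least 2-fold lower were 1 and 2, beside 5.38% and 4.01% of all genes. The medians were -0.08 and -0.04, beside -0.03 and -0.04 over all genes.

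Chemokines of the members varied by cell and by library. Ccl5 was at 3989.6, 2011 and 1838 CPM, with log2 ratios of -0.99 (-1.16 to -0.82) for HHcy and -1.12 (-1.24 to -1.0) for WD, and its share of members with a UMI was 92.1%, 84.6% and 68.4%. The lower Ccl5 sum is seen in cells of WD, with a median of 5 UMIs against 20.5 in control, where the library labelled HHcy had 19. Ccl22, a rule gene, was highest in members labelled HHcy, where the median cell held 15 UMIs against 7.5 in control and 3.5 in WD. Ccl4 was at 760.1, 449 and 334 CPM and Ccl3 at 258, 47.3 and 108, with WD ratios of -1.19 (-1.47 to -0.91) and -1.26 (-1.77 to -0.78); a single control cell carried 59.7% and 62.2% of the control UMIs, and these 2 ratios turned to 0.32 with up to 2 C1qa UMIs allowed (Ccl4) and to 0.88 without barcodes that held other-lineage UMIs (Ccl3). Ebi3, at 50, 35.5 and 23.2 CPM, had a WD ratio of -1.11 (-2.29 to -0.01). Of 13 chemokines and cytokines compared in WD, 4 were at least 2-fold lower and 1 at least 2-fold higher (median -0.60), beside 4.01% and 3.38% of all genes (median -0.04).

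**Figure D4:**
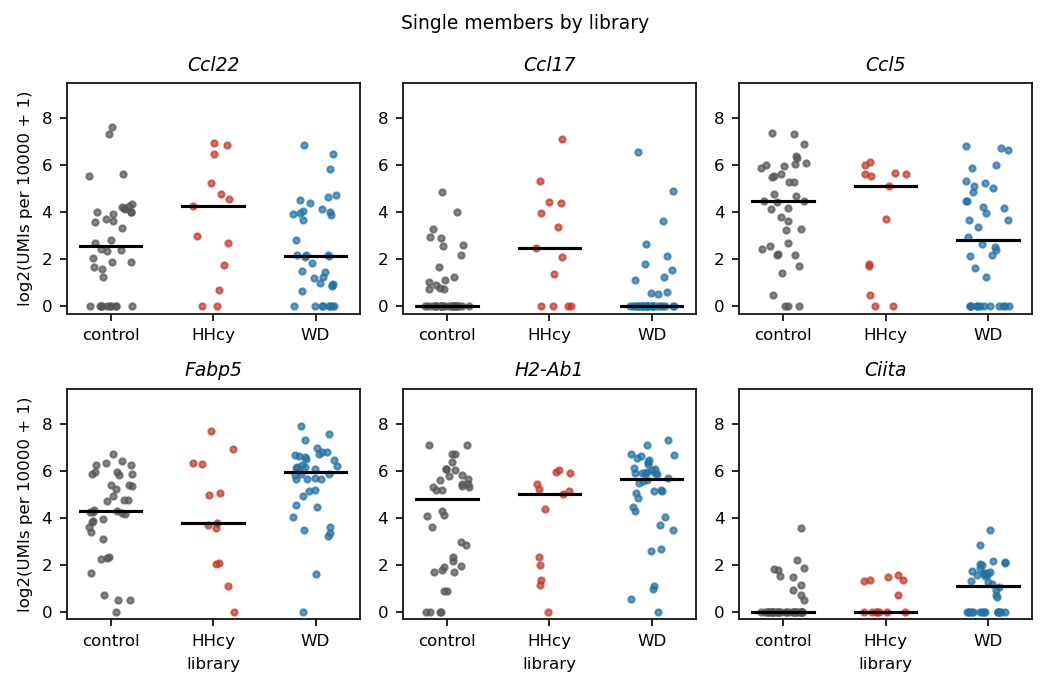
UMIs per 10000 UMIs of the cell, as log2(value + 1), of 6 genes in each of the 89 members, by library; points are cells (38, 13 and 38) and black lines are medians. Fabp5, H2-Ab1 and Ciita medians are highest in WD, and the median of Ccl5 is lowest there.

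Most MHC class II genes had higher values in WD members, by less than 2-fold. Of 12 compared, 11 had a ratio above 0 (median 0.36, beside -0.04 over all genes). The whole interval lay above 0 for 8 and below 0 for 1, beside 8.87% and 11.1% of all genes. By the 2-fold limit, Ciita was higher and H2-Oa lower. The comparators' median for the list was -0.0016. Cd74 was at 11037, 11491 and 14482 CPM, with a WD ratio of 0.39 (0.34 to 0.44); H2-Ab1, at 3616, 3412 and 5524, had 0.61 (0.52 to 0.70) and H2-Eb1, at 4910.5, 5109.8 and 7987, 0.70 (0.63 to 0.78). In comparators these ratios were -0.21 (-0.24 to -0.18), -0.06 (-0.10 to -0.01) and 0.04 (-0.01 to 0.09). Ciita was at 76, 88.7 and 167 CPM, a WD ratio of 1.13 (0.54 to 1.75), against -0.31 (-0.61 to -0.01) in comparators, and 28.9%, 46.2% and 60.5% of members held a UMI. H2-Aa, a rule gene with a limit of 5 UMIs, stood at 5766, 5340.4 and 8979 CPM. In the library labelled HHcy, 0 of 12 genes had an interval above 0, beside 7.77% of all genes (median -0.15).

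Lipid genes of WD members split between handling and synthesis. Of 9 LXR target and lipid handling genes compared, 4 were at least 2-fold higher and none lower (median 0.41), beside 3.38% and 4.01% of all genes (median -0.04). Scd1, a desaturase of fatty acids, was at 13, 59.1 and 59.1 CPM, a WD ratio of 2.18 (0.88 to 3.74), and Plin2 at 65.2, 47.3 and 146, a ratio of 1.16 (0.52 to 1.83), found in 39.5%, 30.8% and 63.2% of members. Fabp4, at 17.4, 118 and 139, had a ratio of 3.0 (1.94 to 4.27), with 47% of its WD UMIs in a single cell, and Mylip, a ubiquitin ligase induced by LXR, at 21.7, 11.8 and 48.5, 1.16 (0.03 to 2.40). Of 5 cholesterol synthesis and uptake genes, none was above 0 (median -0.83), and the comparators' median for the list was -1.15. For 3 of the 5 the interval lay below 0, beside 11.1% of all genes. Idi1 was at 104, 130.1 and 40.1 CPM, a WD ratio of -1.38 (-2.23 to -0.58). In comparators the same ratios were -1.08 (-2.69 to 0.29) for Scd1, -0.43 (-0.79 to -0.07) for Plin2, -0.08 (-1.46 to 1.20) for Fabp4, 0.79 (-0.15 to 1.74) for Mylip and -1.15 (-3.21 to 0.52) for Idi1. Gclc stood at 237, 373 and 71.8 CPM, with ratios of 0.65 (0.18 to 1.11) for HHcy and -1.72 (-2.32 to -1.15) for WD. In comparators these were -1.09 (-2.84 to 0.34) and -1.55 (-3.30 to -0.12). A single control cell carried 48.6% of the control Gclc UMIs of members, and 42.1%, 61.5% and 36.8% of members held a UMI. The WD values of the 5 lipid genes rest on 6 to 69 UMIs per library. The genes of this and the preceding paragraphs were chosen from the lists after their values were seen.

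In the library labelled HHcy, interferon genes of members were lower. Of 8 compared, 1 was above 0, 4 had an interval below 0, beside 8.25% of all genes, and 2 were at least 2-fold lower (median -0.75, beside -0.03 over all genes); comparators had a median of 0.08. Isg15, an antiviral ubiquitin-like protein, had a ratio of -2.05 (-3.98 to -0.59) and Irf1, at 235, 112 and 177 CPM, of -1.06 (-1.85 to -0.35), which was 0.59 in barcodes thinned to 2000 UMIs. Of 8 cell cycle genes compared, 6 were above 0 and 4 had an interval above 0, beside 7.77% of all genes, with Stmn1 at 2.2 (1.40 to 3.03) and Pclaf at 1.53 (0.49 to 2.57); a single cell carried 89.2% of the Stmn1 UMIs there, and all Pclaf UMIs came from 1 cell in each of the 2 libraries. For Cd40 the HHcy ratio was 0.87 (0.23 to 1.5) and the WD ratio 0.59 (0.08 to 1.10), and for Fas 1.19 (0.28 to 2.09) and 0.77 (0.03 to 1.54). Of the dissociation genes, Hspa1a was lower in both treated libraries, with ratios of -1.43 (-1.87 to -1.02) and -1.18 (-1.44 to -0.92), and Fos with -1.01 (-1.39 to -0.66) and -1.09 (-1.34 to -0.84); the HHcy value of Fos was 0.0021 in thinned barcodes, and the part of dissociation in the other ratios was not tested.

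**Figure D5:**
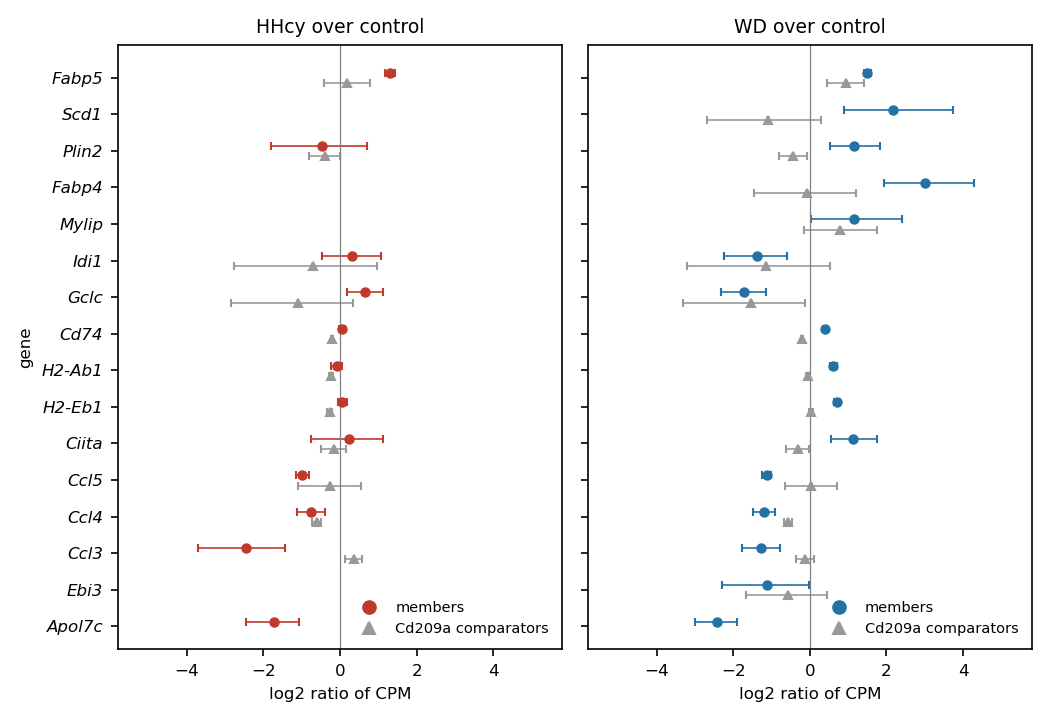
Log2 ratio of CPM to the control library for members (coloured circles) and Cd209a comparators (grey triangles), left for the library labelled HHcy and right for WD, with 95% intervals for counting error; a gene with under 30 UMIs, or with a count of 0, has no point. In WD members Fabp5, Scd1, Plin2, Fabp4 and the MHC class II genes lie above 0, and Idi1, Gclc and Ccl5 below it.

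The genes furthest from control by size were often carried by a few cells. In the library labelled HHcy the furthest up were Cxcl3 at 5.31 (4.47 to 6.29) and Cxcl2 at 2.69 (2.39 to 2.98), neutrophil-attracting chemokines of which a single cell carried 100% and 91.4% of the UMIs, then Plk2 at 2.51 (1.41 to 3.69), Pla2g7 at 2.40 (1.45 to 3.40), Stmn1 and Dtnbp1 at 1.99 (0.90 to 3.13). Plk2, a stress-induced kinase, was the least concentrated of these 6, with 39.1% of UMIs in 1 cell and a UMI in 46.2% of members against 13.2% in control. The furthest down were Ifitm1 at -4.32 (-7.39 to -2.44), Clu at -3.29 (-5.60 to -1.69), Tnni2 at -2.61 (-4.94 to -0.98), Shtn1 at -2.53 (-4.45 to -1.10), Ccl3 at -2.45 (-3.69 to -1.42) and Trim25 at -2.17 (-4.10 to -0.72). Shtn1, which shapes actin in outgrowing processes, and Trim25, an activator of RNA sensing, were each found in 65.8% of control members and in 15.4% and 23.1% of those labelled HHcy. The ratio of Dtnbp1 was -0.076 in thinned barcodes and that of Ifitm1 was 1.24 with up to 2 C1qa UMIs. A single control cell carried 77.1% of the control Ifitm1 UMIs.

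In WD the furthest up were Retnlg at 6.48 (3.97 to 11.80), S100a9 at 6.16 (5.27 to 7.23), 2610528A11Rik at 6.09 (3.56 to 11.41), S100a8 at 4.97 (4.30 to 5.73), Cd14 at 3.99 (2.36 to 6.32) and Ctla2a at 3.23 (2.02 to 4.74). Without the 2 WD members that held 20 or more S100a8 UMIs, the ratios of the neutrophil genes were 1.08 for Retnlg, 0.46 for S100a9 and -0.39 for S100a8, while those of 2610528A11Rik and Cd14, the coreceptor for bacterial lipopolysaccharide, were 6.21 and 2.89. Ctla2a, a cysteine protease inhibitor, was found in 34.2% of WD members against 13.2% in control, and its ratio in comparators was 1.90 (1.40 to 2.42). The furthest down were Hist1h2ap at -3.97 (-5.63 to -2.68), Apol7c, Ptgs2 at -2.27 (-2.94 to -1.65), Tent5a at -2.17 (-3.26 to -1.20), Tnni2 at -2.10 (-3.14 to -1.17) and Cpeb4 at -1.74 (-2.61 to -0.93). Ptgs2, the inducible cyclooxygenase, was found in 31.6% of WD and 36.8% of control members, and its ratio was 0.083 when up to 2 C1qa UMIs were allowed. Cpeb4, a regulator of translation, was found in 26.3% against 71.1% of members, and a single cell carried 88.2% of the control UMIs of the histone gene Hist1h2ap. For Tent5a a single cell carried 54.2% of the control UMIs, and 23.7% of WD and 15.8% of control members held a UMI.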

How the data were processed

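The data are 3 droplet libraries of single aortic CD45+ cells, 1 per group. The authors' deposited matrices hold raw UMI counts for 32285 genes and called barcodes, not normalized. Their version, per the file headers, is Cell Ranger 4.0.0; the submitters' processing notes name Cell Ranger 2.2.0 and the mm10 build. Here UMIs were summed over members or comparators of each library, and CPM is a gene's sum scaled to the class total, so deeper cells weigh more. No doublet caller was run: the rule's conditions on Cd79a, Cd3e and C1qa and a stricter marker limit took its place. Members and gene lists were chosen with earlier results of these data known.

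The class contrast used edgeR 4.0.16 (quasi-likelihood, TMM, filterByExpr, library as block, 6 sums, 2 residual degrees of freedom), Benjamini-Hochberg adjustment and a threshold of 0.05. It was tested on simulated data. Both classes of a library come from the same mice, which is where the pairing comes from. The named genes were the 10 furthest up and the 10 furthest down with at least 100 CPM and 10 UMIs per library, up to 5 passing genes per list and the most abundant genes that did not pass, some of which are given only in the counts; in the library contrasts, the 6 furthest up and down. DESeq2 1.42.0, other normalizations, filters, thinning to 2000 UMIs, looser and stricter gates and leaving out each library were alternatives. Shares carry Clopper-Pearson and counts Poisson or conditional binomial 95% intervals, for counting error only. The columns of samples outside the series numbered 0, and 4 listed symbols had no row and were not used here. Some listed genes are counted but not reported here by name.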

Additional observations from a re-analysis of the deposited data

Results flagged for a closer look

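For 7 of the genes described between libraries, members and Cd209a comparators lay on opposite sides of the control library, with both intervals for counting error off 0. Stmn1 had a log2 ratio of 2.2 in members of the library labelled HHcy and -0.68 in comparators. Ccl3 had -2.45 in members and 0.36 in comparators of that library. In WD, Cd14 had 3.99 in members and -0.94 in comparators, and Plin2 had 1.16 and -0.43. Of the MHC class II genes in WD, H2-Ab1 had 0.61 in members and -0.058 in comparators, Cd74 had 0.39 and -0.21, and Ciita had 1.13 and -0.31. The comparator intervals of H2-Ab1 and Ciita reached up to -0.01, near 0. Only genes described here, which were chosen by their values, were searched, and no share over all genes is given. The differences between the classes were not tested, since each rests on 1 library per group. A single cell carried 89.2% of the Stmn1 UMIs, 62.2% of the control Ccl3 UMIs and 46.9% of the WD Cd14 UMIs of members.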

How the results depend on the processing

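No paired analysis was possible between groups because each group has 1 library and the groups share only the number 1. Without the replicate block on library, the class contrast gave 967 genes higher and 1099 lower, of which 940 and 1053 were also called with it; of the genes named here, Ebi3, Cyp51, Lipa and Ube2c did not pass without it. Thinned to 2000 UMIs, the class contrast gave 268 higher and 235 lower genes of 1095 tested; without barcodes that held 2 or more UMIs of other-lineage genes it gave 479 and 483 of 2887; DESeq2 gave 671 and 561. Leaving out 1 library gave 677 to 1141 higher and 669 to 1096 lower genes; the lower count fell to 669 without the WD library and to 721 without the control library. No gene called in the class contrast was called in the opposite direction under these alternatives. S100a9, not called there, was called in both directions: lower without WD (-4.67) and higher without the library labelled HHcy (1.31). S100a8, also not called there, was called higher without the library labelled HHcy (1.63) and was not called without WD (-3.56). Of 130 named genes past the threshold, 111 passed in the same direction under every alternative that tested them. These log2 fold changes turned sign: without 1 library, H2-Eb1 (-0.36 to 0.031, the latter without control), S100a8 (-3.56 to 1.63) and S100a9 (-4.67 to 1.31), the latter both without the library labelled HHcy, and Tnfsf9 (-0.19 to 0.42, the former without that library); Tnf 0.12 when thinned; Cxcr4 0.42 and Cd86 -0.063 without other-lineage barcodes; S100a8 1.54 and S100a9 1.11 with up to 2 C1qa UMIs, and S100a8 0.77 without barcodes of 20 or more S100a8 UMIs. Without barcodes that held 2 or more UMIs of other-lineage genes, 22, 5 and 18 members were left of 38, 13 and 38. Their shares of kept barcodes were 0.364%, 0.0613% and 0.268%. The WD share was 0.999% with up to 2 C1qa UMIs. Genes 2-fold higher and lower in members labelled HHcy were 11 and 25 when thinned and 23 and 47 with a minimum of 60 UMIs; in WD they were 19 and 20, and 36 and 51, in this order, 77 and 71 without other-lineage barcodes, and 191 higher with up to 2 C1qa UMIs. Of the library ratios, these turned sign: for HHcy, when thinned, Dtnbp1 -0.076, Irf1 0.59 and Fos 0.0021, Fos 0.11 without other-lineage barcodes, and Ifitm1 1.24 with up to 2 C1qa UMIs; for WD, S100a8 -2.25 and Ccl3 0.88 without other-lineage barcodes, Ptgs2 0.083 and Ccl4 0.32 with up to 2 C1qa UMIs, and S100a8 -0.39 without members of 20 or more S100a8 UMIs. Thinning and the other-lineage limit leave fewer UMIs and genes; the cause of the other changes was not tested. The C1qa and S100a8 alternatives were chosen after seeing the data. With 13 members, the library labelled HHcy limits every ratio.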
